A study of Mus musculus with 4 samples.

Results

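Metallothioneins and the proteins that move zinc across membranes were examined in livers of fasted and refed mice, as a set of 7 genes: Mt1 and Mt2, the transcription factor gene Mtf1, the zinc exporter family members Slc30a1 and Slc30a10, and the zinc importer family members Slc39a4 and Slc39a14. The members were found on the array as every gene spot that carries one of these 7 names, which gave 9 probes of 39429 in all. All 7 genes had at least 1 probe that stood well above background on all 4 arrays in 1 condition or the other, as did 16054 gene or transcript names in total. The set was chosen by the fasted over refed ratios of Mt1 and Mt2 on these same arrays, so the members' own ratios are given as a description, without a test.

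The livers came from male C57BL/6J mice of 8 to 12 weeks. The fasted group had gone without food for 24 h, and the refed group had the same 24 h fast followed by 2 h with food, so that every mouse had fasted and no group was fed throughout. RNA from 4 fasted and 4 refed livers, 200 ng each, was hybridised to 4 two-colour oligonucleotide arrays. Each array, called a replicate below, took 1 liver of each group, and the pairs were drawn at random. The fasted liver carried the red dye Cy5 on replicates 1 and 2 and the green dye Cy3 on replicates 3 and 4. Ratios are given on the log2 scale with the fasted liver as numerator, and values above 0 mean more signal from the fasted liver. The tissue was whole liver, in which fewer cells of a type and less RNA per cell cannot be told apart.

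Metallothioneins are small cysteine-rich proteins that bind zinc and copper, and liver is rich in Mt1 and Mt2. Their genes are switched on by zinc through MTF1, a zinc finger protein that binds short DNA stretches called metal response elements, and also by glucocorticoids, by interleukin-6 and by cAMP signalling. SLC30 proteins lower cytosolic zinc by carrying it out of the cell or into vesicles, and SLC39 proteins raise it by carrying it into the cytosol. Slc30a1 is a classical MTF1 target that exports zinc at the cell surface, Slc30a10 is best known as a manganese exporter, Slc39a4 takes up dietary zinc in the intestine, and Slc39a14 carries zinc, manganese and iron into hepatocytes.

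The sequence upstream of the members is shown because Mt1 and Mt2 stood far from the others in these livers while all share textbook ties to metal control. RefSeq promoters of the GRCm38.p6 build were available for 5 of the 7 genes (Mt1, Mt2, Mtf1, Slc30a1 and Slc30a10). The 250 bases before the listed start were searched on both strands for the metal response element core, written TGCACNC or TGCGCNC, and matches are in capitals. The 4 member genes with a match follow, 5′ to 3′ on the strand of the gene, which is the plus strand in each case. Mt1 lies at chr8:94178839-94179088, Mt2 at chr8:94172368-94172617, Slc30a1 at chr1:191906531-191906780 and Slc30a10 at chr1:185454598-185454847.
Mt1: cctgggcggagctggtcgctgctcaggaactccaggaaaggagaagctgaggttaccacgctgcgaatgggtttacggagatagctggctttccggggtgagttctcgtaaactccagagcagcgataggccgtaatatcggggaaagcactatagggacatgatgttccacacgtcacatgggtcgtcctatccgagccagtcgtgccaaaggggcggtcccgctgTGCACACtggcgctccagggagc
Mt2: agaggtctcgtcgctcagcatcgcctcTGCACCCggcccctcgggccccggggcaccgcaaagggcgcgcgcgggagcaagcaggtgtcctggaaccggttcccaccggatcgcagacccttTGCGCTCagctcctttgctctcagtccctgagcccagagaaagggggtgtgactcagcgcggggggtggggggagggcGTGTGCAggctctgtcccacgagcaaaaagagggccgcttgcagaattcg
Slc30a1: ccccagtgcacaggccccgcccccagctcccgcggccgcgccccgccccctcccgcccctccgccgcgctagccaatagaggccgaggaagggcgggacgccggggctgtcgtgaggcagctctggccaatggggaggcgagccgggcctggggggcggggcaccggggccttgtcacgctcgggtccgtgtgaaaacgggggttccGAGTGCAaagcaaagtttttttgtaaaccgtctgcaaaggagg
Slc30a10: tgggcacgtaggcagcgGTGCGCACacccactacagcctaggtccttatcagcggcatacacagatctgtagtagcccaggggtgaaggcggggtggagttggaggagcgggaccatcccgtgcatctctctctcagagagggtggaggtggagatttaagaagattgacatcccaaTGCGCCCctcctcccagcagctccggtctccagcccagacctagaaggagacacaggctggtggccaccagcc

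The core was matched 3 times in the Mt2 window, 3 times in that of Slc30a10, once in that of Mt1 and once in that of Slc30a1, and not in that of Mtf1. In Slc30a10, 2 of the 3 matches overlap on opposite strands. Of the 32851 promoters of this length in the table, 21.4% held at least 1 match and 1.26% held at least 3. Mt4, a metallothionein outside the set, held 1 match and Mt3 held 0. The full cAMP response element TGACGTCA was in none of the 5 member windows and in 1.55% of all promoters. Its shorter part TGACG was matched once in Mt1 (17.8% of all promoters), and the glucocorticoid receptor element part TGTTCT once in Mtf1 (16.1%). The TATA box letters TATAAA were in no member window, against 12.4% of all promoters, and in Mt4 they were matched once. A match is a matter of letters and is not evidence of binding. Bases after the listed start and other starts of these genes were not searched. A count of matches, or their absence, thus holds for the printed window and not for the whole promoter.

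Mt1 and Mt2 lie side by side on chromosome 8. In the promoter table the gene order is Mt4, Mt3, Mt2 and Mt1, with 15403, 20011 and 6471 bases between successive starts. The array measured Mt1 with 1 probe at chr8:96704165-96704224 and Mt2 with 1 probe at chr8:96697371-96697430, both in mm9, the build of the files. The exon or UTR under a probe is not annotated there. Because the genes are close relatives, the probe letters are shown for their difference, as the first 30 of 60 bases of each.
Mt1 probe: cctgtttactaaacccccgttttctaccga
Mt2 probe: agaagcctagccttttttgtacaaccctga

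At the same positions the full 60-base probes had 12 letters in common. In the best alignment without gaps they overlapped by 50 bases, of which 24 were identical. Each sequence was on 1 gene spot of the array only. Whether either probe also bound the other transcript was not tested.

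Across all probes, 335 were called higher and 410 lower in fasted liver, where a call needed a limma adjusted p below 0.10 together with a 1.5-fold change or more. With centring on the median in place of loess the split was 230 higher and 635 lower. By gene, with the brightest kept probe of each, 3.95% of the 16054 names were called, 1.82% higher and 2.13% lower. The 10 hepatocyte markers were well above background in all 8 livers. The refed liver of replicate 3 also carried pancreatic transcripts: the summed signal of 15 acinar marker genes was 87140 there and 774.5 to 2784 in the other 7 livers. Of these markers only Clps, Ctrb1, Cel and Amy2a5 were above background in all 8 livers, and the transcription factor Ptf1a was above it in none. Summed erythroid marker signal ran from 23942.5 to 110956 in fasted livers, the highest again on replicate 3, and from 10420 to 26858.5 in refed livers. Zinc proteins are abundant in pancreas, so a value without replicate 3 is given beside a zinc gene's mean that it moved by over 1.5 times or turned in sign. The part of these cells in the zinc genes was not tested further.

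Mt2 had the larger difference of the 2 metallothioneins. In the fasted livers its pixel signal was 33330, 37018, 15297 and 9744.5 on replicates 1 to 4, and in the refed livers 2711, 1520.5, 2426.5 and 2685.5, over local backgrounds of 18 to 36. Every fasted liver was brighter than every refed liver. After normalization the log2 level was 15.78, 15.20, 13.75 and 12.84 in fasted and 11.78, 10.69, 11.08 and 10.94 in refed livers. The ratios were 3.99, 4.51, 2.67 and 1.90, a mean of 3.27 ± 1.20 (SD, n = 4), which is 9.62-fold. Mt2 ranked 2, 2, 4 and 27 from the top among 19721 kept probes on the 4 arrays.

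The ratio of Mt1 varied more between arrays than that of Mt2. The pixel signal of Mt1 was 60795, 97571.5, 60026 and 25201 in fasted livers and 11144, 5304, 15338 and 17981 in refed livers. The fasted liver of replicate 4 and the refed liver of replicate 4 were close, and those of replicate 2 were farthest apart. The normalized log2 level was 16.64, 16.58, 15.72 and 14.23 in fasted livers and 13.83, 12.50, 13.67 and 13.63 in refed livers. As for Mt2, the groups did not overlap, which held for 6.04% of all genes in this direction. The ratios were 2.81, 4.08, 2.05 and 0.59, a mean of 2.38 ± 1.46 (SD, n = 4) or 5.22-fold. Mt1 ranked 10, 3 and 19 on replicates 1 to 3 and 888 on replicate 4. Its mean was 2.24, 1.82, 2.49 and 2.98 when replicate 1, 2, 3 and 4 was left out in turn, and that of Mt2 was 3.02, 2.85, 3.47 and 3.72. Mt1 was short of the call limits without replicate 1, 2 or 3, which is given as a description like the ratios themselves.

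**Figure D1:**
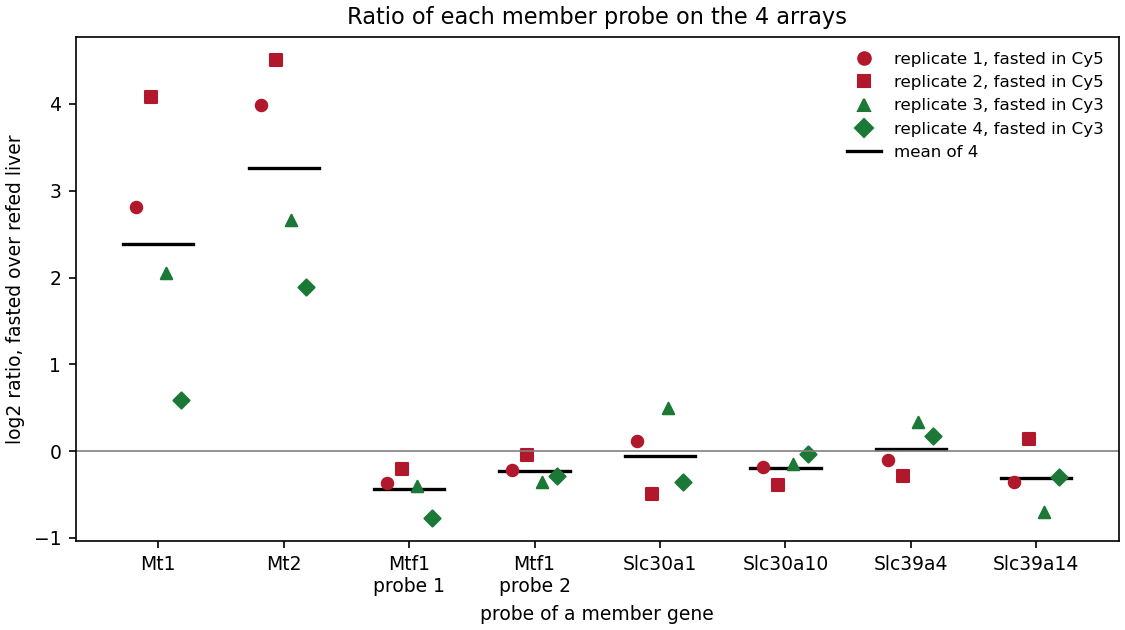
The log2 ratio of fasted over refed liver (vertical axis) of the 8 kept probes of the 7 member genes (horizontal axis), with 1 point per array, coloured by the dye of the fasted liver, and a bar at the mean of 4 arrays. Mt1 and Mt2 lie above 0 on every array with means of 2.38 and 3.27, the red points above the green ones, and the means of the other probes lie between -0.44 and 0.03.

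Of the 7 members, 2 were called higher (Mt1 and Mt2) and 0 lower, beside the 1.82% and 2.13% of all genes, and since the ratios chose the set nothing is read from this count. The other 5 genes lay within 0.44 log2 units of 0, and their levels overlapped between the groups. The ratio of Mt2 exceeded that of Mt1 on each array, by 1.18, 0.43, 0.61 and 1.30 log2 units (mean 0.88 ± 0.43, SD, n = 4).

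**Figure D2:**
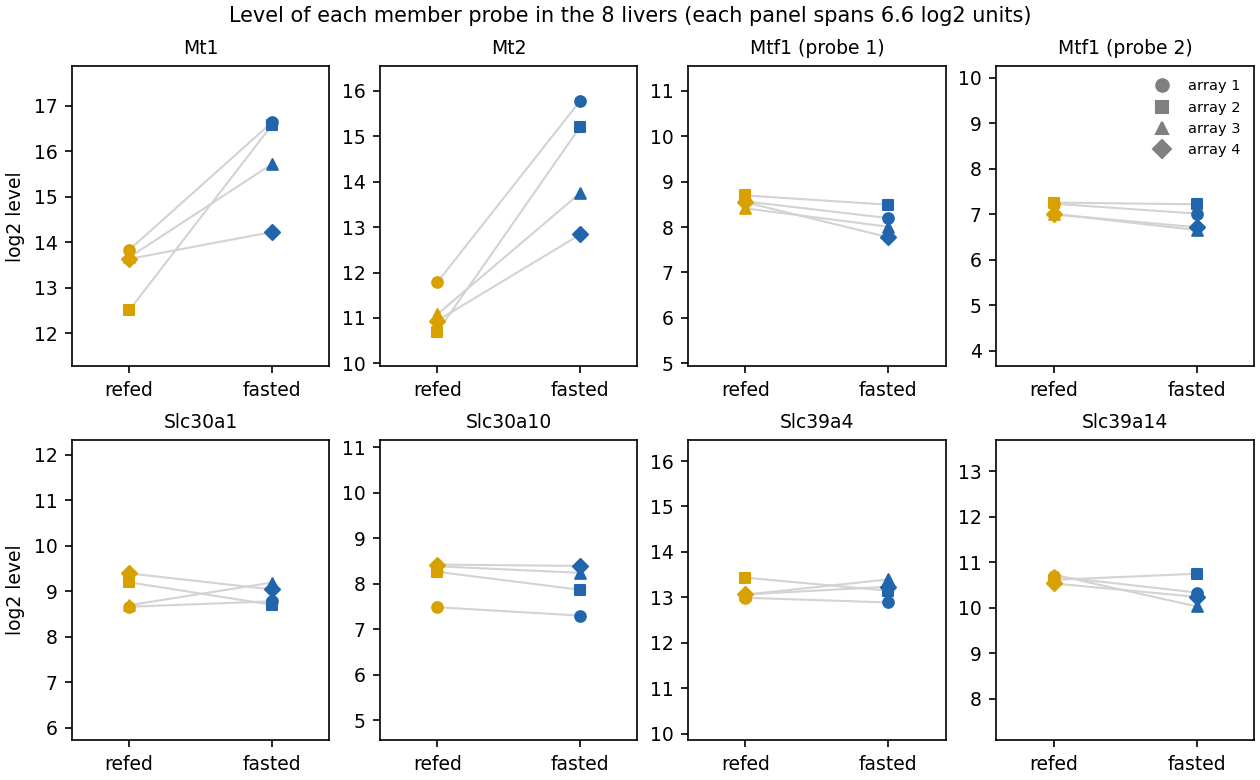
Normalized log2 level (vertical axis) of each kept member probe in the refed and fasted livers (horizontal axis), with 1 symbol per liver, grey lines joining the livers of 1 array, and the same span of log2 units in every panel. Fasted and refed livers separate for Mt1 and Mt2 and overlap for the other 5 genes.

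The fasted livers differed among themselves more than the refed livers did in both genes. For Mt2 the SD of the level was 1.34 in fasted and 0.47 in refed livers (n = 4 each), and for Mt1 it was 1.13 and 0.61. By normalized level, the highest and lowest fasted livers were the same for both genes (replicate 1 and replicate 4). So were the highest and lowest refed livers (replicate 1 and replicate 2). By pixel signal, the brightest fasted liver was that of replicate 2 for both genes. The brightest refed liver by pixel signal was that of replicate 4 for Mt1 and of replicate 1 for Mt2. Over the 8 livers the levels of Mt1 and Mt2 had a Pearson correlation of 0.97, and their deviations from the mean of each condition one of 0.90. These are descriptions over livers that share arrays in pairs.

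The fasted over refed ratio of both metallothioneins was larger where the fasted liver carried Cy5. For Mt2 it averaged 4.25 on those 2 arrays and 2.28 on the 2 with the dyes exchanged, and for Mt1 3.45 and 1.32. A dye effect, fitted in limma as a second term that the choice of the set did not use, was 0.98 ± 0.15 (SE) for Mt2 with an adjusted p of 0.0330 and 1.06 ± 0.29 (SE) for Mt1 with an adjusted p of 0.0833. These were the 2 of 7 members with an adjusted p under 0.10, a limit that 15.3% of all genes passed. For the other 5 genes the dye effect lay between -0.22 and 0.19, with adjusted p from 0.101 (Slc39a4) to 0.638 (Slc30a1). The dye effect of Mt1 was 0.74 with an adjusted p of 0.183 without replicate 2 and 0.70 with 0.260 without replicate 4. Each dye orientation held different mice, so with 2 arrays in each, the dye and the livers cannot be told apart.

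The genes whose levels ran most like the mean of Mt1 and Mt2 over the 8 livers were picked by Pearson correlation among the brightest kept probes, members left out. The highest value, 0.995, belonged to a probe at chr3:94901128-94901187 whose transcript has no gene symbol in the file, with a ratio of 2.53 ± 1.36 (SD, n = 4). It was followed by Crybg1 (0.990), Got1 (0.988), Ctcfl (0.983) and Sorbs3 (0.982). Got1 encodes the cytosolic aspartate aminotransferase, a link between amino acid and glucose metabolism, and its ratios were 2.14, 2.25, 1.45 and 0.47. Ctcfl encodes a relative of the insulator protein CTCF, and Sorbs3 encodes the adhesion protein vinexin. In all 5 the ratio was highest on replicate 2 and lowest on replicate 4, as in Mt1 and Mt2. The ratios on replicates 1 and 2, with the fasted liver in Cy5, also exceeded those on replicates 3 and 4 in each. With the condition means removed, the correlations of these 5 were 0.93 to 0.98. The pick was made on the levels of these same livers, so a shared pattern in part follows from it. In total 45 of 16054 names reached 0.95 and 216 reached 0.9, members included, and since 8 livers on shared arrays give the values they are a description. The remaining members were on the other side of 0, from -0.57 for Slc30a10 to -0.27 for Slc39a4.

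**Figure D3:**
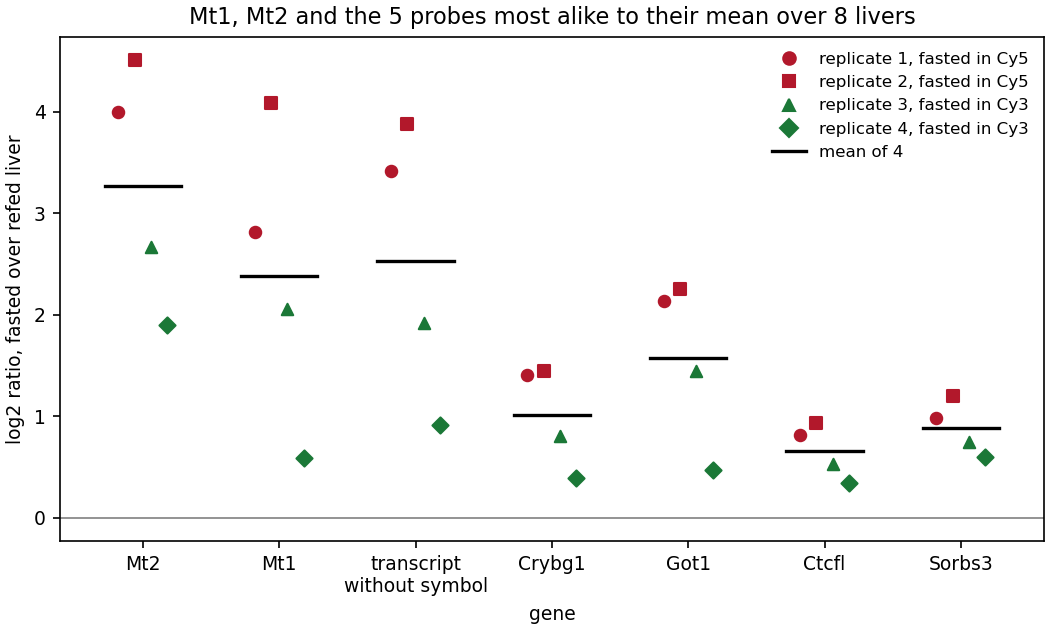
The log2 ratio of fasted over refed liver (vertical axis) of Mt2, Mt1 and the 5 probes most alike to their mean level over the 8 livers (horizontal axis), with 1 point per array coloured by the dye of the fasted liver and a bar at the mean of 4. Every probe has its highest point on replicate 2 and its lowest on replicate 4.

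Mtf1, which encodes the zinc sensor of the metallothionein genes, was measured with 3 probes on chromosome 4, of which 2 were kept. The brighter kept probe, at chr4:124526365-124526424, had pixel signals of 157, 318.5, 276.5 and 282.5 in fasted and 269.5, 376, 339.5 and 459 in refed livers. On each array the fasted liver was the dimmer one, though the groups overlapped. Its ratios were -0.37, -0.20, -0.40 and -0.77, a mean of -0.44 ± 0.24 (SD, n = 4), short of the 1.5-fold limit. The dimmer kept probe, at chr4:124522092-124522151, had a mean of -0.22 ± 0.14 (SD, n = 4) and was also below 0 on 4 of 4 arrays. The third probe was well above background in 2 fasted livers and 0 refed livers, and was not kept.

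Of the member zinc exporters, Slc30a1, probed at chr1:193736760-193736819, had ratios of 0.12, -0.50, 0.50 and -0.35, higher in the fasted liver on 2 arrays and lower on the other 2. Its mean was -0.06 ± 0.46 (SD, n = 4), and its mean without replicate 1, 2, 3 or 4 ran from -0.24 (without replicate 3) to 0.09 (without replicate 2). Its pixel signal ran from 239.5 to 701 in fasted and from 284.5 to 869 in refed livers, so the groups overlapped widely. Slc30a10, probed at chr1:187292107-187292166, was lower in the fasted liver on 4 of 4 arrays, with ratios of -0.19, -0.39, -0.15 and -0.03 and a mean of -0.19 ± 0.15 (SD, n = 4). The liver on replicate 1 had the lowest Slc30a10 level in each condition, 7.30 fasted and 7.48 refed, against 7.87 to 8.42 in the others.

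Of the member zinc importers, Slc39a4, probed at chr15:76442866-76442925, had ratios of -0.10, -0.29, 0.34 and 0.17, a mean of 0.03 ± 0.28 (SD, n = 4), and of -0.07 without replicate 3. The 2 arrays with fasted liver in Cy5 were below 0 and the 2 with the dyes exchanged above it. Its pixel signal was 4457 to 12828 in fasted and 6340 to 12067 in refed livers. Slc39a14, probed at chr14:70703394-70703453, had ratios of -0.36, 0.13, -0.70 and -0.30, a mean of -0.30 ± 0.34 (SD, n = 4), and it was lower in the fasted liver on 3 of 4 arrays. Its largest difference was on replicate 3, whose refed liver held the acinar transcripts, and its mean without that array was -0.17.

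Outside the set, the zinc exporter family held 1 gene that passed the limits. Of the 10 Slc30 genes 7 had a kept probe, 0 were called higher and 1 lower, beside 1.82% and 2.13% of all genes. Slc30a5, which loads zinc into the early secretory pathway for zinc-dependent enzymes, was lower in fasted than in refed liver. Its ratios were -0.33, -0.86, -1.04 and -1.14. Its mean was -0.84 ± 0.36 (SD, n = 4; adjusted p of 0.0273 in limma), 1.79-fold higher in refed liver. Without replicate 2 the mean was -0.83 with an adjusted p of 0.102, and without replicate 3 it was -0.77 with an adjusted p of 0.114, so the call was lost in those cases. Slc30a6, its partner in that compartment, was at -0.30 ± 0.25 (SD, n = 4; adjusted p of 0.181) and below 0 on 4 of 4 arrays. Slc30a7, a further exporter of the secretory pathway, was at -0.15 ± 0.07 (SD, n = 4; adjusted p of 0.281), also below 0 on 4 of 4 arrays. The median of the 7 was -0.15, against a median of -0.001 over all kept probes.

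Of the 14 Slc39 genes 11 had a kept probe, with a median of -0.08. Of the 11, 0 were called, beside 3.95% of all genes. The lowest was Slc39a10, an importer of the cell surface, with ratios of -0.35, -0.57, -0.46 and -0.72. Its mean was -0.53 ± 0.16 (SD, n = 4; adjusted p of 0.0255 in limma), which passed the p limit and missed the limit of 1.5-fold. The highest was Slc39a8, a relative of Slc39a14, at 0.13 ± 0.22 (SD, n = 4; adjusted p of 0.512), or 0.07 without replicate 3. Slc39a7, which releases zinc from the endoplasmic reticulum, was at -0.10 ± 0.39 (SD, n = 4; adjusted p of 0.782), or -0.16 without replicate 3. Slc30a2, Slc30a3, Slc30a8, Slc39a5, Slc39a9 and Slc39a12 had no kept probe. Slc30a2 and Slc39a5, both known from pancreas, gave signals of 45.5 and 36 in the refed liver of replicate 3, not well above background. Over all 8 livers their signals were also dim, 32.5 to 75 and 28 to 73. These probes therefore do not show whether the pancreatic tissue carried these transcripts.

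**Figure D4:**
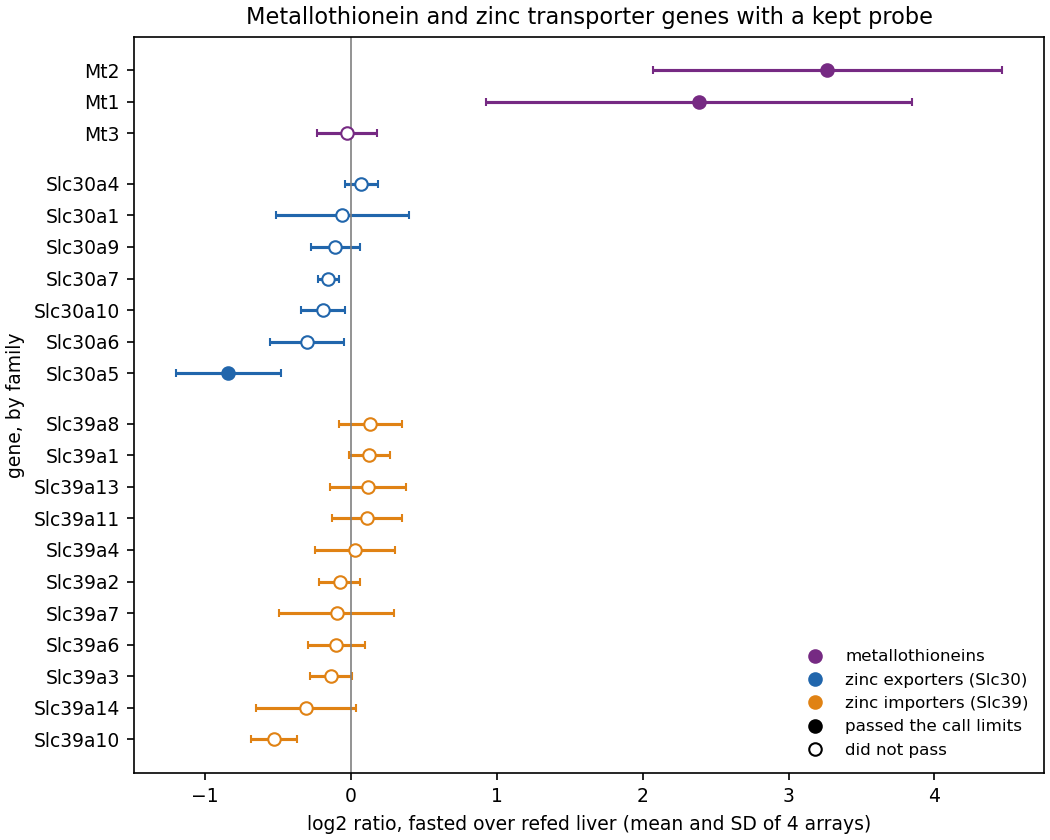
Mean log2 ratio of fasted over refed liver (horizontal axis) with its SD over 4 arrays for the metallothionein, Slc30 and Slc39 genes that had a kept probe (vertical axis), filled where the gene passed the call limits. Mt1 and Mt2 lie far to the right, Slc30a5 at -0.84 is the lowest, and the remaining genes lie between -0.53 and 0.13.

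The neighbours of Mt1 and Mt2 in the cluster were near 0 or dim. Mt3, best known from brain, was at -0.03 ± 0.20 (SD, n = 4; adjusted p of 0.918 in limma), with ratios of 0.18, 0.12, -0.23 and -0.17, and its mean was 0.04 without replicate 3. Mt4, a metallothionein of stratified epithelia, was well above background in 1 fasted liver only and had no kept probe. Over the 22 zinc transporter and metallothionein genes outside the set, 15 had a kept probe, and their median was -0.10. Of the 15, 0 were called higher and 1 lower, beside 1.82% and 2.13% of all genes.

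Genes of other systems that control or accompany metallothioneins were taken from lists. Of 4 measured genes among other reported MTF1 targets 0 were called, beside 3.95% of all genes. Hamp, the iron hormone hepcidin, was at 0.23 ± 0.21 (SD, n = 4; adjusted p of 0.243 in limma). Ndrg1 passed the p limit at 0.45 ± 0.18 (SD, n = 4; adjusted p of 0.0429) and missed the fold limit. Of 9 measured copper genes 1 was called, beside 3.95% of all genes. The called gene was Sco2, an assembly factor of cytochrome oxidase, at 0.65 ± 0.29 (SD, n = 4; adjusted p of 0.0344 in limma). It was not called without replicate 3 or 4, with median centring in place of loess, with normexp on all spots or with a 2-fold limit. Of 7 measured NRF2 targets, which respond to oxidative stress as metallothioneins do, 0 were called, beside 3.95% of all genes. Their median was -0.29. Gclc, the rate-limiting enzyme of glutathione synthesis and a gene of both the MTF1 and NRF2 lists, was at -0.51 ± 0.57 (SD, n = 4; adjusted p of 0.221).

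Glucocorticoid response genes held the most calls among these lists, 6 of 10 higher and 0 lower beside 1.82% and 2.13% of all genes, with a median of 0.87. They included Zbtb16, a zinc finger repressor, at 1.91 ± 0.89 (SD, n = 4; adjusted p of 0.0255 in limma), and the phosphatase gene Dusp1 at 1.504 ± 0.68 (adjusted p of 0.0253). Errfi1, an inhibitor of growth factor receptors, was at 1.18 ± 0.54 (adjusted p of 0.0269 in limma). The transcription factor gene Klf9 was at 0.96 ± 0.60 (adjusted p of 0.0592 in limma). Tat and Sgk1 were also called, while Fkbp5, Per1, Tsc22d3 and the receptor gene Nr3c1 were not. The count was 3 without replicate 2 and 1 without replicate 3, while the median without replicate 3 was 0.94. Over the 19 other alternatives the count ranged from 0, with normexp on all spots, to 7 with no fold limit, and it was 3 with a 2-fold limit. Of 16 genes of the interleukin-6 and acute phase response 2 were called higher and 0 lower, beside the same shares of all genes, with a median of 0.22, or 0.34 without replicate 3. They were Cebpd, a transcription factor of the acute phase, at 1.35 ± 0.56 (SD, n = 4; adjusted p of 0.0206), and the receptor gene Il6ra at 0.83 ± 0.51 (adjusted p of 0.0574). The count was 1 without replicate 2, 3 or 4, 3 without replicate 1, and it ranged from 0 to 4 over the 19 other alternatives, with 4 under a dye term and under SAM rebuilt with 16 sign flips. Saa1 and Saa2, the acute phase serum amyloids, were at 1.09 ± 0.97 and 1.28 ± 1.20 (SD, n = 4; adjusted p of 0.126 and 0.141). Both were highest on replicate 3, and their means without it were 0.65 and 0.75.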

How the data were processed

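Livers were compared on 4 two-colour arrays from 1 slide and 1 scan. The authors deposited scanner files of Agilent Feature Extraction (10.10.1.1 per the file headers), whose intensity values are raw pixel signals per spot, and a table of log2 ratios that the authors had normalized by loess in limma, matched to spots by row number and used as an alternative only.

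From 44397 spots per array, median signals were taken in R 4.3.3 with limma 3.58.1. Spots with a local background over 3 times the array's median were left out (55 in all). Normexp with an offset of 50 and loess within arrays followed, without control and flagged spots (197 to 322 on each array, 0 saturated). Probes well above background on all 4 arrays in 1 condition were kept (19721 of 39429), and a gene was read from its brightest one. Levels by liver came from Aquantile scaling between arrays. lmFit and eBayes tested the 4 ratios (two-sided, Benjamini-Hochberg over kept probes). Call limits, a false discovery rate of 10% and 1.5-fold, are those the study's methods name for SAM. The number of arrays limits the precision.

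The members and lists were chosen with earlier results of these data known. Named genes were all members, called zinc genes, up to 4 called genes of each further list and the 5 genes most alike to Mt1 and Mt2. Other genes given with values were chosen after their values were seen. Names came from RefSeq accessions for 26055 probes, symbols or synonyms for 4125 and the files for 9249. The fits were tested on simulated data.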

Additional observations from a re-analysis of the deposited data

Results flagged for a closer look

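In groups of 4, the gap from the highest or lowest sample to the nearest other, divided by the whole range, was scanned for 40 sets of member and list values, and 5 exceeded the 95% limit of Dixon's test. Chance alone flags about 1 in 20 such sets. The mean ratio of the glucocorticoid list was 1.30 on replicate 2 and 0.64 to 0.74 on the others (gap over range 0.844). The mean ratio of the acinar markers was -3.26 on replicate 3 and 0.04 to 0.06 on the others (0.995). Among refed livers, the Mt1 level of replicate 2 was 12.50 against 13.63 to 13.83 (0.852). The Slc30a10 level of replicate 1 was 7.48 against 8.26 to 8.42 (0.8293). The Slc39a4 level of replicate 2 was 13.43 against 12.99 to 13.07 (0.833). The refed liver of replicate 2 thus stood apart for Mt1 and for Slc39a4, in opposite directions. The reasons were not tested.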

How the results depend on the processing

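Across 19 alternatives besides left-out replicates, the Mt2 ratio lay between 3.06 and 3.28 and that of Mt1 between 2.23 and 2.49 in the 18 that gave a value. With normexp on all spots without the background limit, 0 member genes, 0 zinc transporter and metallothionein genes (3 otherwise), 19 probes in all (745 otherwise) and 1267 probes for the dye effect (2908 otherwise) were called, and Slc30a5 was at -0.40 with an adjusted p of 0.559. Leaving out spots of flagged background gave neither metallothionein a value, which left 0 member genes and 1 zinc gene called. The Mt1 spot was flagged on 2 arrays (replicates 1 and 2) and the Mt2 spot on 1 (replicate 1). On these arrays the fasted liver carried Cy5. Plain subtraction called 1264 probes, processed signals 1602, no fold limit 2150 and a 2-fold limit 231. The dye effect was called for 1170 probes with processed signals and 563 with median centring, which also called 635 probes lower (410 otherwise). Its adjusted p for Mt1 exceeded 0.10 in 5 of 16 alternatives, up to 0.288, and for Mt2 it was at most 0.0915. Leaving out 1 replicate called 1 to 2 member genes, 1 to 3 zinc genes, 464 to 937 probes and 213 to 2336 probes for the dye effect, the lowest without replicate 3 for probes and without replicate 4 for the dye. Mtf1 was called lower with processed signals (-0.62) and without a fold limit. No ratio of Mt1, Mt2 or Slc30a5 changed sign under any of these alternatives. Each ratio pairs the 2 livers of an array, so the fit of the 4 ratios is itself paired, and the separate-channel fit without a replicate block called 715 probes.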
